A study of Homo sapiens with 6 samples.

Results

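The heat shock chaperones and their co-chaperones were examined by RNA-seq in U87MG, an established human glioblastoma cell line, as 40 named genes among the 27257 genes of the library tables. Infection lasted 24 h in both groups, with a control lentivirus in 3 libraries (U87MG-control) and with an LMO2 lentivirus in the other 3 (U87MG-LMO2), and no uninfected cells were compared. LMO2 encodes a LIM-domain adaptor protein, and the study's methods place the human LMO2 sequence in a vector with a CMV promoter and a puromycin marker, while the labels do not say what the control virus carried. The labels give each library a group and a replicate number and do not say whether replicates came from separate cultures, so p-values measure the spread between these libraries, which may be technical. The genes were listed with fold changes of these libraries known, HSPA1A, HSPA6 and CRYAB among them. Their counts and fold changes are therefore a description of this contrast and support nothing beyond it.

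In U87MG-LMO2 the stress-inducible HSP70 genes HSPA1A, HSPA1B and HSPA6 were lower than in U87MG-control, by 6.82-fold, 3.23-fold and 7.40-fold. HSPA1A and HSPA1B share reads, and their sum was lower by 3.25-fold. HSPA1A and HSPA6 had 15.2 counts or fewer in each U87MG-LMO2 library. All 4 listed partners of HSP90 (STIP1, AHSA1, CHORDC1 and FKBP4), the HSP40 genes DNAJB1 and DNAJA1, the HSP110 gene HSPH1 and BAG3 were also lower, by 1.45-fold to 2.61-fold. The small heat shock protein CRYAB was higher by 4.78-fold. The other 27 tested genes did not pass the threshold of an edgeR adjusted p under 0.05 over all genes.

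Chaperones bind unfolded proteins and keep them from aggregating. HSP70 proteins take up clients handed over by HSP40 (J-domain) proteins, release them with the help of nucleotide exchange factors such as the BAG and HSP110 proteins, and pass some of them to HSP90. Under heat or other protein damage the transcription factor HSF1 binds arrays of short inverted repeats, called heat shock elements, in the promoters of many of these genes, and tumour cells often keep them high without such stress. The list was named as cytosolic, but HSPA9, HSPD1, HSPE1 and DNAJA3 encode proteins of the mitochondrial matrix, and HSPB11 encodes a subunit of the intraflagellar transport machinery, so the list is called heat shock chaperones here.

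Depth was 11428432 to 13537284 expected counts in U87MG-control and 14630627 to 17892955 in U87MG-LMO2, and the ranges did not overlap. LMO2 itself, the check of the labels, had 7, 11 and 5 counts in the controls and 5459, 4503 and 14570 counts in U87MG-LMO2. Of the marker genes, VIM (5122 to 5642 FPKM, a read count scaled to transcript length and depth) and CD44 (451 to 606 FPKM) were abundant, NES was at 6.64 to 8.71 FPKM, the glial markers SOX2, OLIG2, S100B and ALDH1L1 were at 0.42 FPKM or less in every library, and of the markers of blood, endothelial and epithelial cells PTPRC, CD3E, CDH5 and EPCAM were at 0.38 FPKM or less, CDH1 at 0.42 to 0.60 FPKM and PECAM1 at 0.72 to 1.08 FPKM. The glial marker GFAP, whose line in U87MG-LMO2 replicate 3 was damaged, was at 0.13 to 0.26 FPKM in the other libraries. Of 2 neuronal markers, 1 had counts enough to be tested (log2 fold change 0.0036). The U87MG-LMO2 replicate 3 library stood apart. Across genes, its log2 normalised read count, relative to the mean of the 6 libraries, rose by 0.251 for each 10% of GC content, against -0.00784 and 0.0606 in the other U87MG-LMO2 libraries and -0.159 to -0.0587 in the controls. The GC trend thus moved with the group, and its part in the results was not tested beyond the correction whose values are given below. Among the controls, replicate 1 had the lowest trend (-0.159). In read counts, control replicate 1 also differed more from replicates 2 and 3 (chi-square per degree of freedom 10.8 and 10.2) than those did from each other (2.27). Over all tested genes the median log2 fold change was -0.01.

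Levels of different genes were compared per length, in FPKM. In U87MG-control, 13 of the 40 genes had a mean of at least 100 FPKM, 13 lay between 10 and 100, 11 lay between 1 and 10, and HSPA1L, HSPA12A and DNAJA4 were under 1 FPKM. The 4 most abundant, HSPB1, HSPA8, HSP90AB1 and HSP90AA1, held 68.6% of the summed FPKM of the 40 genes. That sum was 4988, 5795 and 5783 FPKM in the controls and 3588, 3615 and 3645 FPKM in U87MG-LMO2. Every U87MG-LMO2 library lay below every control, with a ratio of the means of 0.655. Mean FPKM went from 1504 to 923 for HSPB1, 1237 to 895.5 for HSPA8, 573 to 435 for HSP90AB1 and 475 to 259 for HSP90AA1. None of these 4 genes passed the threshold. Without scaling to length, the 40 genes took 0.998%, 1.17% and 1.17% of the counts of the controls and 0.751%, 0.785% and 0.676% of those of U87MG-LMO2. RNA of bulk cells does not tell a change in all cells from a change in some of them.

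**Figure D1:**
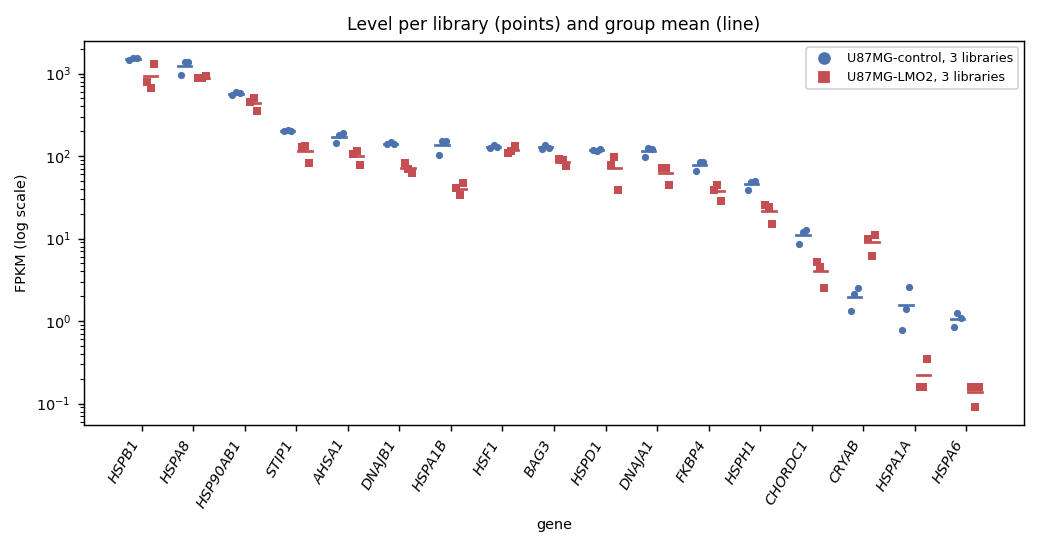
FPKM (log axis) of the 12 genes that passed the threshold and of the most abundant gene of each class, ordered by the mean of the controls. Blue circles are the 3 U87MG-control libraries, red squares the 3 U87MG-LMO2 libraries and horizontal lines the group means; CRYAB is the gene whose U87MG-LMO2 libraries all lie above the controls, the groups of HSF1 overlap and those of HSPA8 nearly meet.

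The test covered 39 of the 40 genes. DNAJA4 had 1 to 6 counts in each library and did not pass the filter on low counts. Of the 39, 11 were called lower (28.2%), where 2.75% of all 16092 tested genes were, and 1 was called higher, where 4.72% of all genes were, so 12 were called in either direction, where 7.48% of all genes were. Since the genes were chosen with these values known, nothing is read from the difference between these shares. The log2 fold change was below 0 in 32 of 39 genes, against 51.1% of all genes, with a median of -0.42. All 3 U87MG-LMO2 libraries lay below all 3 controls in 20 genes, against 16.6% of all genes, and above them in CRYAB and HSPB8, against 17.5% of all genes. The count of lower calls depended on single libraries. It was 6, 3 and 3 without U87MG-control replicate 1, 2 or 3, and 5, 16 and 18 without U87MG-LMO2 replicate 1, 2 or 3. Over all genes the share called lower moved with it, to 0.279%, 0.339% and 0.255% without those controls and to 0.294%, 1.86% and 6.72% without those U87MG-LMO2 libraries. HSPA1B, HSPA6 and DNAJB1 were called lower and CRYAB higher in each of these 6 fits. U87MG-LMO2 replicate 3 was the lowest of the 6 libraries in 24 of the 39 genes, against 28.3% of all genes, and without it the median log2 fold change was -0.26. After the correction for GC content, 12 genes were called lower, namely the same 11 and HSPB1, where 2.24% of all genes were.

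**Figure D2:**
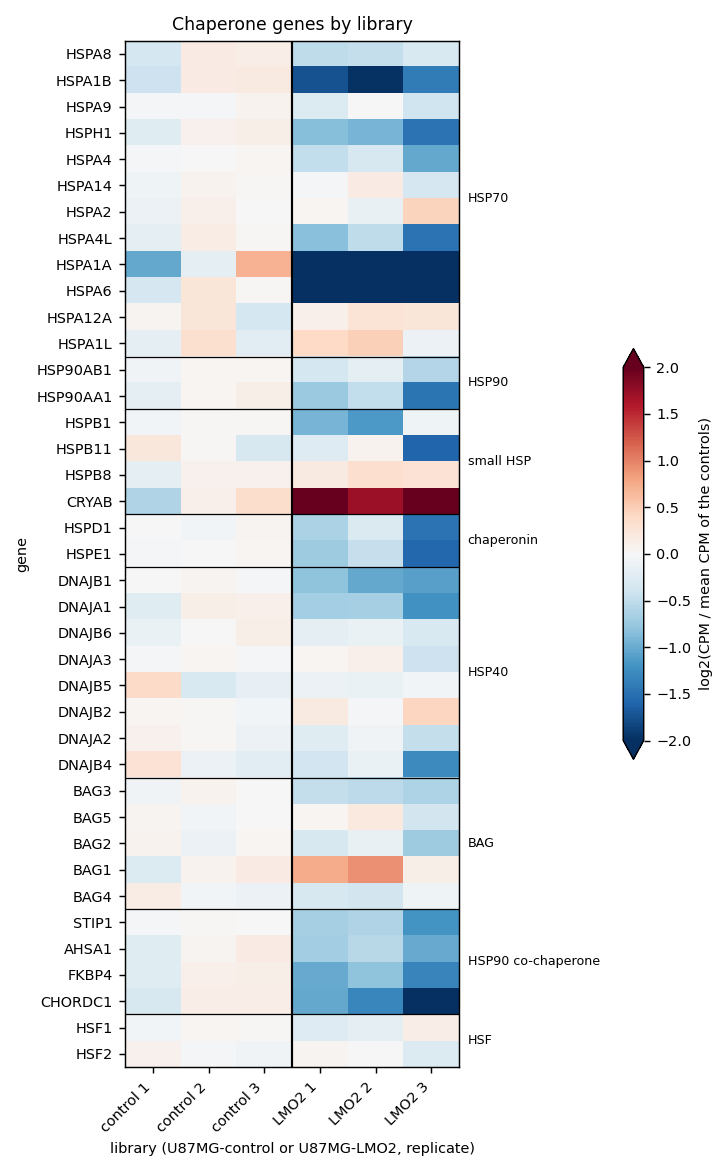
Log2 ratio of the normalised read count (CPM) of each library to the mean of the controls, for the 39 tested genes (rows, grouped by class) and 6 libraries (columns). Blue is lower and red higher than the control mean, and the colours saturate at a log2 ratio of -2 and 2. The HSP90 co-chaperone rows are blue in all 3 U87MG-LMO2 columns, and CRYAB is red in all 3.

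The stress-inducible HSP70 genes had the lowest fold changes of the list. HSPA1B (Entrez gene 3304) encodes the major heat-induced HSP70 protein and is a gene of 1 exon at chr6:31827735-31830255 on the + strand (GRCh38, GENCODE v29). Its normalised read count, in CPM (scaled to depth but not to length), was 258, 384 and 387 CPM in the controls and 103, 86.8 and 129 CPM in U87MG-LMO2. The groups did not overlap, and U87MG-control replicate 1 was the lowest control. The mean was 343 ± 73.3 CPM (SD, n = 3) in U87MG-control and 106 ± 21.5 CPM (SD, n = 3) in U87MG-LMO2, with a log2 fold change of -1.69 (SE 0.19, edgeR adjusted p = 0.00413). Set against the constitutive HSP70 gene HSPA8 in the same library, HSPA1B had 10.6%, 10.9% and 11.2% of the FPKM of HSPA8 in the controls, and 4.62%, 3.89% and 5.02% in U87MG-LMO2.

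HSPA1A (3303) lies upstream of HSPA1B at chr6:31815464-31817946 on the same strand and encodes a protein of almost the same sequence. It was given 22.1, 46.7 and 83.0 expected counts in the controls and 6.17, 5.75 and 15.2 expected counts in U87MG-LMO2. The groups did not overlap, and the controls differed among themselves more than those of HSPA1B. The log2 fold change was -2.77 (SE 0.51, adjusted p = 0.0196), and the call was lost without U87MG-control replicate 2 or 3 or U87MG-LMO2 replicate 1 (adjusted p 0.0620, 0.0740 and 0.0842). The HSPA1A and HSPA1B genes share reads. Of the windows of 50 bases in the HSPA1B transcript, 71.4% occurred unchanged in the HSPA1A transcript, and HSPA1A received only 0.365% to 1.60% of the counts of the pair, so how the counts were split between them is uncertain. Summed before the fit, the pair had 260, 387 and 393 CPM in the controls and 103, 87.2 and 130 CPM in U87MG-LMO2. The sum was lower by 3.25-fold (log2 fold change -1.70, SE 0.20, edgeR adjusted p = 0.00417), with every U87MG-LMO2 library below every control.

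HSPA6 (3310), a gene of 1 exon at chr1:161524540-161526910 on the + strand, is scarcely expressed in unstressed human cells and strongly induced by heat. It had 23, 41 and 34 counts in the controls and 6, 3 and 7 counts in U87MG-LMO2. The level was low in both groups, at 1.07 ± 0.211 FPKM and 0.137 ± 0.0404 FPKM (SD, n = 3), and the groups did not overlap. It fell by 2.89 on the log2 scale (SE 0.34, adjusted p = 0.00430). HSPA6 has a close copy, the pseudogene HSPA7, in which 45.5% of its windows of 50 bases occur unchanged, so a part of its reads could have been placed elsewhere.

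The promoters of these genes are shown because they hold the letters of the heat shock element, which HSF1 is known to bind, and because HSPA1A and HSPA1B could be compared base by base upstream of their starts. Sequences are from RefSeq (GRCh38.p14), 5′ to 3′ on the strand of the gene, with heat shock elements in capitals. For HSPA1A (chr6:31815364-31815463), HSPA1B (chr6:31827560-31827659) and HSPA6 (chr1:161524440-161524539), 100 bases that overlap no annotated exon are given.
HSPA1A: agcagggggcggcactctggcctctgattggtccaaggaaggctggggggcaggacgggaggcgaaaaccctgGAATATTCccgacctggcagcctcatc
HSPA1B: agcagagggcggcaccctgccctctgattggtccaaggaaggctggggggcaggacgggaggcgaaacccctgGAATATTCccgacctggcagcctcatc
HSPA6: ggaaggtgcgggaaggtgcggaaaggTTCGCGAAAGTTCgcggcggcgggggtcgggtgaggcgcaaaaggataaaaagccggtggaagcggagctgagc

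HSPA1A and HSPA1B held the same 8-base element, GAATATTC, made of 2 units and ending 99 and 98 bases before the RefSeq start. HSPA6 held a 3-unit element. For HSPA8 (chr11:123062171-123062199, - strand), HSP90AA1 (chr14:102087112-102087140, - strand) and CHORDC1 (chr11:90223084-90223112, - strand), only 29 bases around an element near the start are given. HSPA8 held a second 3-unit element farther upstream, from 230 to 218 bases before the start, that is not shown. In CHORDC1, 3 overlapping matches made a run of 23 bases.
HSPA8: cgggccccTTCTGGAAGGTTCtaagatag
HSP90AA1: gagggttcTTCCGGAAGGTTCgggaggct
CHORDC1: ccgGAAAATTCGCGAAGGTTCCTGAAacg

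The 3-unit element was searched as GAANNTTCNNGAA and TTCNNGAANNTTC, which are each other's reverse complement and so cover both strands, in windows from 250 bases before to 50 bases after each RefSeq start. It was found in 0.490% of all 35116 windows and in 8 of the 52 windows (15.4%) of the 35 listed genes that had one. The 8 genes were HSPA6, HSPA8, HSP90AA1, HSP90AB1, HSPD1, DNAJA1, DNAJB6 and CHORDC1. Of these 8, HSPA6, DNAJA1 and CHORDC1 were called lower, and the median log2 fold change was -0.78. Of the 26 tested genes with a window but without the element, 7 were called lower, and the median was -0.41. HSPA1A, HSPA1B, HSPH1 and DNAJB1 were among those 7. Only exact matches within these windows were counted. A gene without a match is therefore not shown to lack an element with an altered unit or one outside the window. The genes were listed with these fold changes known, so nothing is read from the difference between these groups. Among genes outside the list, 2 of 52 with the element and 318 of 11838 without it were called lower, which is 3.85% and 2.69%. The shorter 2-unit element (GAANNTTC or TTCNNGAA), which every 3-unit element contains, was in 13.5% of all windows and in 21 of the 52 windows of the listed genes (40.4%), which is 16.2% of all genes in the promoter table and 20 of the 35 listed genes (57.1%). A match describes the letters of the window and not binding by HSF1.

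Of the constitutive HSP70 genes, HSPA8 (3312), which encodes the abundant housekeeping HSP70, was the highest of the class. It had 2063, 2956 and 2894 CPM in the controls and 1860, 1903 and 2133 CPM in U87MG-LMO2. U87MG-control replicate 1 lay within the range of U87MG-LMO2 and the other controls above it. The log2 fold change was -0.42 (SE 0.15, edgeR adjusted p = 0.111), and it passed the threshold only without U87MG-LMO2 replicate 3 (-0.49, adjusted p = 0.0409). HSPA9 (mitochondrial HSP70), HSPA14 (a ribosome-associated HSP70), HSPA2, HSPA1L and HSPA12A had log2 fold changes from -0.21 to 0.26 with overlapping groups and adjusted p values from 0.295 to 0.823. HSPA2 and HSPA14 changed sign without U87MG-LMO2 replicate 3.

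The HSP110 genes encode large relatives of HSP70 that act as its nucleotide exchange factors. HSPH1 (10808) had 140, 175 and 179 CPM in the controls and 91.7, 86.4 and 59.4 CPM in U87MG-LMO2. It fell by 1.06 on the log2 scale (SE 0.17, edgeR adjusted p = 0.0136), with no overlap of the groups, and the call was lost without U87MG-control replicate 2 or 3 (adjusted p 0.0620 and 0.0719). HSPA4L and HSPA4 also had groups that did not overlap. Their log2 fold changes were -0.89 (95% interval -1.43 to -0.36, adjusted p = 0.0548) and -0.58 (-0.96 to -0.21, adjusted p = 0.0668), and both were called without U87MG-LMO2 replicate 2 or replicate 3.

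The HSP90 genes were measured at high levels. HSP90AB1 (3326), the constitutive form, had 1451, 1566 and 1559 CPM in the controls and 1193, 1346 and 1018 CPM in U87MG-LMO2, and HSP90AA1 (3320), the inducible form, had 1415, 1653 and 1736 CPM and 952, 1135 and 584 CPM. Both had U87MG-LMO2 libraries below all controls, with replicate 3 the lowest. HSP90AB1 had a log2 fold change of -0.36 (SE 0.12, edgeR adjusted p = 0.0972) and HSP90AA1 one of -0.85 (SE 0.22, adjusted p = 0.05001). Unadjusted, both edgeR p values were under 0.05, but the share of all genes under that cut was not counted. The cut is loose here, since BAG2, with an unadjusted edgeR p of 0.0498, had an adjusted p of 0.194. DESeq2, which called 4.23% of all genes lower against 2.75% with edgeR, called HSP90AA1. Without U87MG-LMO2 replicate 3, the value of HSP90AA1 was -0.62 (adjusted p = 0.00594).

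The 4 partners of HSP90 all passed the threshold, with a median log2 fold change of -0.91. STIP1 (10963), also called HOP, joins HSP70 to HSP90 and was the most abundant of them. It had 438, 458 and 448 CPM in the controls and 283, 296 and 196 CPM in U87MG-LMO2, a log2 fold change of -0.79 (SE 0.15, edgeR adjusted p = 0.0221). AHSA1 (10598), which stimulates the ATPase of HSP90, had 203, 250 and 271 CPM against 149, 165 and 120 CPM, with a log2 fold change of -0.74 (SE 0.15, adjusted p = 0.0261). In both, the groups did not overlap and U87MG-LMO2 replicate 3 was the lowest library.

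FKBP4 (2288), the immunophilin FKBP52 of steroid receptor complexes, had 157, 201 and 202 CPM in the controls and 92.8, 107 and 74.4 CPM in U87MG-LMO2. It was 2.04-fold lower (log2 fold change -1.03, SE 0.16, edgeR adjusted p = 0.0109). CHORDC1 (26973), which encodes the HSP90-binding protein also called morgana and whose promoter element is shown above, had 16.2, 22.1 and 22.2 CPM in the controls and 9.94, 8.18 and 5.06 CPM in U87MG-LMO2. It was 2.61-fold lower (log2 fold change -1.38, SE 0.24, adjusted p = 0.0166). The groups of both genes lay apart. The calls of these 4 genes were not held in every fit: STIP1 and AHSA1 lost theirs without any control or without U87MG-LMO2 replicate 1 (adjusted p 0.0543 to 0.114), CHORDC1 without any control (0.0534 to 0.0774), and FKBP4 without U87MG-control replicate 2 or 3 or U87MG-LMO2 replicate 1 (0.0536 to 0.0611). Without U87MG-LMO2 replicate 3 all 4 were called, with log2 fold changes from -1.15 for CHORDC1 to -0.62 for AHSA1.

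**Figure D3:**
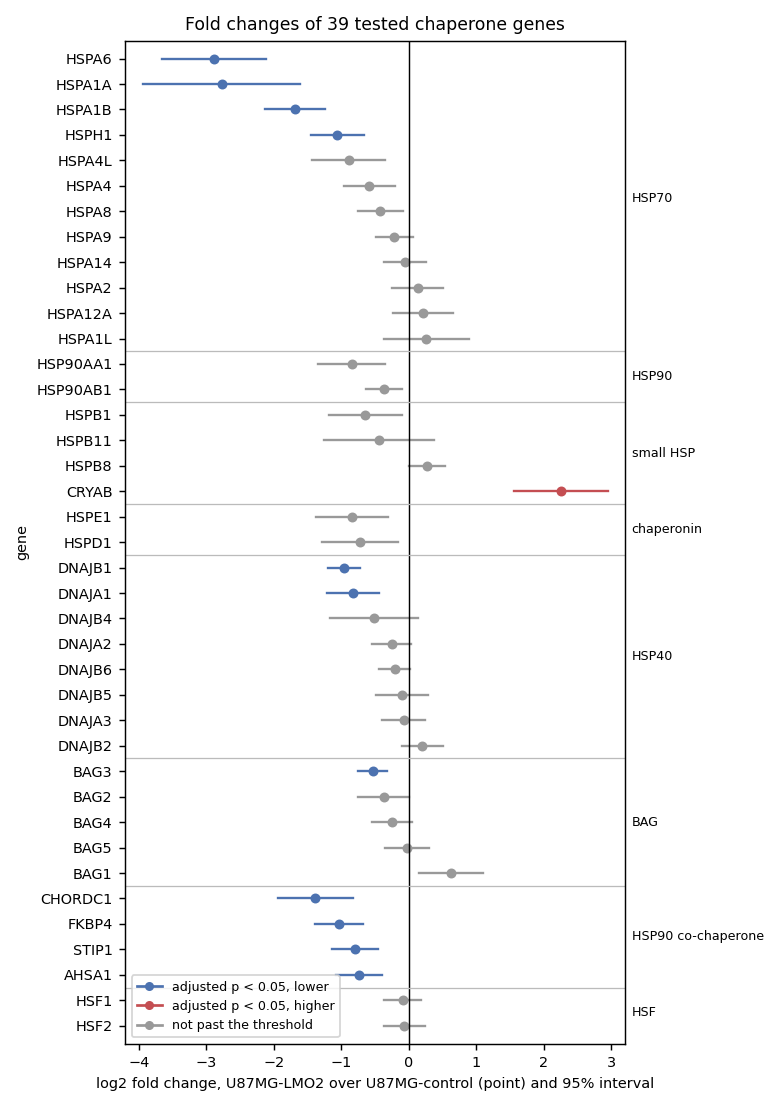
Log2 fold change of U87MG-LMO2 over U87MG-control (points) with 95% intervals (lines) for the 39 tested genes, grouped by class. Blue marks genes called lower, red the gene called higher and grey genes that did not pass; the 4 HSP90 co-chaperones are blue, and CRYAB at 2.26 is the one red gene.

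The small heat shock proteins hold unfolded proteins in large oligomers without using ATP. CRYAB (1410), alpha-B-crystallin, was low in the controls, with 14, 27 and 31 counts, and had 154, 89 and 187 counts in U87MG-LMO2. Every U87MG-LMO2 library was above every control, at 9.39, 6.07 and 11.3 CPM against 1.22, 1.97 and 2.35 CPM. CRYAB rose by 2.26 on the log2 scale (SE 0.30, edgeR adjusted p = 0.00728), and by 2.05 without U87MG-LMO2 replicate 3. CRYAB at chr11:111908565-111923722 (- strand) spans HSPB2, another small heat shock gene on the opposite strand, which had 0 counts in each control and 1, 3 and 8 counts in U87MG-LMO2. Whether strand was used in counting is not given in the sources used here, and the genes share 626 exon bases in GENCODE v29, which is 20.6% of those of CRYAB and 46.9% of those of HSPB2, so some reads could have been counted for either gene.

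HSPB1 (3315), or HSP27, had the highest mean FPKM of the list in both groups, although HSPA8 was above it in U87MG-LMO2 replicates 1 and 2. It had 1289, 1358 and 1351 CPM in the controls and 702, 603 and 1254 CPM in U87MG-LMO2. The libraries of U87MG-LMO2 were all below the controls but disagreed with each other, since replicate 3 was close to the controls while replicates 1 and 2 were not. The log2 fold change was -0.64 (SE 0.24, edgeR adjusted p = 0.135) with all libraries and -1.03 (SE 0.08, adjusted p = 2.46e-04) without replicate 3. After the correction for GC content it was -0.91 (adjusted p = 0.0270), and the GC content of HSPB1, at 62.9%, was above the 49.8% that was the median of all tested genes. HSPB8, a partner of BAG3, had 31.6 to 38.6 CPM in the controls and 40.9 to 45.5 CPM in U87MG-LMO2 and did not pass (log2 fold change 0.26, 95% interval 0.0001 to 0.53, adjusted p = 0.194). HSPB11 had overlapping groups and a log2 fold change of -0.44 (adjusted p = 0.473).

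The mitochondrial chaperonin genes HSPD1 (3329, HSP60) and HSPE1 (HSP10) lie on opposite strands of chromosome 2 and encode the folding chamber and its lid. In GENCODE v29, HSPE1 (chr2:197499994-197503457) lies within the span of HSPD1 (chr2:197486581-197516737), and 281 exon bases are shared, which is 14.2% of those of HSPE1, so without strand some reads could have been counted for either gene. HSPD1 had 276, 267 and 286 CPM in the controls and 178, 226 and 99.0 CPM in U87MG-LMO2. HSPE1 had 65.9 to 69.5 CPM in the controls and 22.8 to 48.8 CPM in U87MG-LMO2. In both the controls lay close together, the U87MG-LMO2 libraries were spread below them, and replicate 3 was the lowest. HSPD1 had a log2 fold change of -0.72 (SE 0.25, edgeR adjusted p = 0.111) and HSPE1 one of -0.85 (SE 0.23, adjusted p = 0.0639). Both unadjusted edgeR p values were under 0.05, a cut whose share over all genes was not counted. DESeq2 called both, and called 4.23% of all genes lower against 2.75% with edgeR. Without U87MG-LMO2 replicate 3 the values were -0.45 and -0.59 (edgeR adjusted p 0.0204 and 0.00547).

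Of the HSP40 genes, DNAJB1 (3337), the heat-inducible J-domain partner of HSP70, was the most abundant. It had 331, 347 and 327 CPM in the controls and 192, 165 and 158 CPM in U87MG-LMO2. The mean was 335 ± 10.6 CPM (SD, n = 3) against 172 ± 17.6 CPM (SD, n = 3), a gap several times the spread of either group. It was 1.95-fold lower (log2 fold change -0.96, SE 0.10, edgeR adjusted p = 0.00346).

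DNAJA1 (3301), a farnesylated J-domain protein of the cytosol, had 146, 187 and 186 CPM in the controls and 108, 109 and 74.8 CPM in U87MG-LMO2, without overlap. DNAJA1 fell by 0.83 on the log2 scale (SE 0.17, edgeR adjusted p = 0.0261), and the call was lost without any control or without U87MG-LMO2 replicate 1 (adjusted p 0.0594 to 0.107). The other tested HSP40 genes did not pass. DNAJB4, DNAJA2, DNAJB6, DNAJB5, DNAJA3 and DNAJB2 had log2 fold changes of -0.52, -0.26, -0.21, -0.10, -0.08 and 0.20, with adjusted p values from 0.243 to 0.760. DNAJB6, a suppressor of polyglutamine aggregation, was the one of these 6 whose groups did not overlap, at 99.2 to 117 CPM against 88.3 to 98.9 CPM.

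The BAG proteins bind HSP70 through a shared domain and release its nucleotide. BAG3 (9531), which links HSP70 and small heat shock proteins to autophagy, was the most abundant of them. It had 316, 349 and 329 CPM in the controls and 239, 232 and 215 CPM in U87MG-LMO2. The groups did not overlap, and the log2 fold change was -0.54 (SE 0.09, edgeR adjusted p = 0.0171). This call was lost without any control or without U87MG-LMO2 replicate 1 (adjusted p 0.0561 to 0.0980). BAG1, which couples HSP70 to the proteasome, was measured at 18.6 to 25.4 CPM in the controls and 24.5 to 42.3 CPM in U87MG-LMO2. Its log2 fold change was 0.63 (SE 0.21, adjusted p = 0.104), and 0.83 (adjusted p = 0.00447) without U87MG-LMO2 replicate 3. BAG2, BAG4 and BAG5 had log2 fold changes of -0.37, -0.25 and -0.02 with adjusted p values from 0.194 to 0.933.

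The heat shock factors themselves did not pass the threshold. HSF1 (3297), the main activator of these promoters, had 241, 257 and 254 CPM in the controls and 210, 221 and 275 CPM in U87MG-LMO2. The groups overlapped through replicate 3, and the log2 fold change was -0.09 (95% interval -0.36 to 0.18, edgeR adjusted p = 0.677). After the correction for GC content it was -0.33 (adjusted p = 0.0601). HSF2, a related factor, had a log2 fold change of -0.07 (95% interval -0.36 to 0.23, adjusted p = 0.788). HSF1 activity is known to be set mostly on the protein, which these data do not measure.

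**Figure D4:**
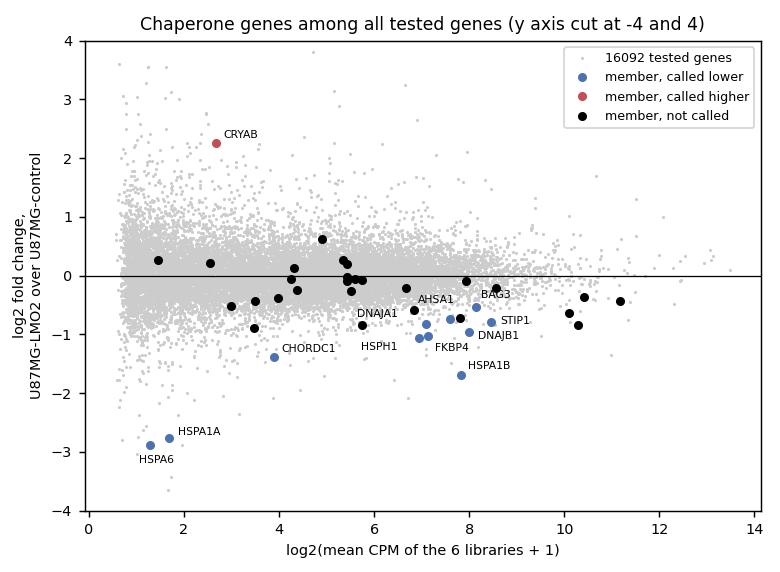
Log2 fold change (y axis) against log2 of the mean CPM of the 6 libraries plus 1 (x axis) for the 16092 tested genes in grey and the 39 tested chaperone genes in blue (called lower), red (called higher) and black (not called). HSPA6 and HSPA1A sit at the low end of the x axis near -3, while HSPA1B, DNAJB1, STIP1 and BAG3 are lower at higher levels. The y axis stops at -4 and 4, and 7 tested genes lie beyond it.

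Other genes of protein folding were counted on 8 lists of 76 genes outside the chaperone list, of which 72 were tested, 9 were called lower (12.5%) and 2 higher, against the 2.75% and 4.72% of all genes. The TRiC chaperonin, which folds actin and tubulin in the cytosol, had all 8 subunits below 0 with a median log2 fold change of -0.38, and CCT4 (-0.48, edgeR adjusted p = 0.0240) and CCT3 (-0.37, adjusted p = 0.0471) were called lower. Prefoldin, which delivers clients to TRiC, had no call among 6 subunits with edgeR or DESeq2. Of its unadjusted edgeR p values 3 were under 0.05, a cut whose share over all genes was not counted. Of 14 other co-chaperones, PPID, the cyclophilin CYP40 of HSP90 complexes, was called lower (-0.74, adjusted p = 0.0127). Of 10 other J-domain proteins, DNAJC13, an endosomal protein, was called lower (-0.41, adjusted p = 0.0359).

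The small heat shock gene HSPB6 was called higher, at 18.1, 17.1 and 17.8 CPM in the controls and 30.7, 25.9 and 32.9 CPM in U87MG-LMO2 (log2 fold change 0.76, edgeR adjusted p = 0.0143). Of 11 other genes known to be induced by heat, CLU, the extracellular chaperone clusterin, was called lower (-1.42, adjusted p = 0.00344), with 96.2, 66.4 and 73.1 CPM in the controls and 27.9 to 32.1 CPM in U87MG-LMO2. MRPL18, a mitochondrial ribosomal protein gene, was also called lower (-0.51, adjusted p = 0.0442). Of 14 chaperones of the endoplasmic reticulum, HSP90B1, PDIA4 and PDIA6 were called lower (-0.54, -0.65 and -0.66), and of 8 other mitochondrial chaperones and proteases, CLPP was called higher (0.46). Except for that of CLU, each of these calls outside the chaperone list was lost in at least 1 fit that left out a library. Only 1 to 2 lower calls were left without any one control or without U87MG-LMO2 replicate 1, where 0.255% to 0.339% of all genes were called lower. Without U87MG-LMO2 replicate 3 there were 18, where 6.72% of all genes were called lower.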

How the data were processed

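Total RNA of 6 U87MG libraries was sequenced by a service company. Each deposited library table pairs a gene with an expected count, an estimate of its reads without normalization, and with an FPKM value, scaled by the authors for gene length and depth. The submitters' processing notes name Bowtie2, BWA and GRCh38 p12; the counting program is not given in the sources used here. A further deposited table holds the authors' group means in FPKM, a log2 ratio and a probability, of which only the means were used, to find damaged lines: 131 genes did not match in U87MG-LMO2 (tolerance 0.005 FPKM) because the replicate 3 table had 3 unreadable lines, and they were left out. None was a listed chaperone.

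Expected counts were rounded and tested with edgeR 4.0.16 in R 4.3.3 (filterByExpr, TMM, quasi-likelihood, 2-sided), with Benjamini-Hochberg adjustment over 16092 genes. CPM used TMM-adjusted library sizes. For the GC correction, GENCODE v29 transcripts gave the GC content of 89.8% of tested genes, and a lowess curve per library (span 0.3, groups not used) was subtracted. The scripts were tested on simulated data, where 2.66% of the edgeR calls and 7.25% of the DESeq2 calls were false. The simulated counts had the same dispersion for every gene, no GC trend and no outlying library. These rates therefore do not carry over to the measured data. Each SE was derived from the log2 fold change and its quasi-likelihood F statistic. The 95% interval built on it describes the uncertainty of the fold change, given the spread between these libraries. The members and lists were chosen with earlier results of these data known. Values per library were given for HSPA1A, HSPA1B, HSPA6, genes called, and the highest FPKM of each class; of the other lists, genes called, at most 4 per list. Alternatives were DESeq2 1.42.0, limma 3.58.1 on log2(FPKM + 1) and log2(FPKM + 0.1), upper-quartile scaling, other filters, a replicate block and leaving out each library.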

Additional observations from a re-analysis of the deposited data

How the results depend on the processing

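Listed genes called lower were 16 of 39 with DESeq2, where 4.23% of all genes were, and 15 of 40 without a filter (1.86%). With at least 10 counts in every library they were 10 of 37 (2.92%), HSP90AA1 among them. Either limma fit gave 11 of 39 (2.29% and 2.26% of all genes), as did upper-quartile scaling (2.75%). With HSPA1A and HSPA1B summed they were 10 of 38 (2.75%). After the GC correction they were 12 of 39 (2.24%), and with damaged genes kept 11 of 39 (2.4%). Leaving out each library gave 3 to 18, where 0.255% to 6.72% of all genes were called lower. The count called higher was 2 with DESeq2, where BAG1 joined CRYAB and 6.24% of all genes were called higher. It was 1 to 2 when a library was left out, where 0.62% to 7.97% of all genes were called higher. Among the genes of the other lists, 14 were called lower with DESeq2 (4.23% of all genes). When a library was left out, 1 to 18 were called lower (0.255% to 6.72% of all genes). After the GC correction 1 was called higher (3.21% of all genes), and 0 to 3 were when a library was left out (0.62% to 7.97%). Among all genes, DESeq2 called 681 lower, and leaving out a library gave 42 to 1102 lower and 102 to 1307 higher. The extremes over all genes came without U87MG-control replicate 3 and without U87MG-LMO2 replicate 3. Higher calls on the other lists were 0 without any control or U87MG-LMO2 replicate 1, where 0.62% to 1.09% of all genes were called higher. They were 3 without U87MG-LMO2 replicate 3, where 7.97% of all genes were.

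Same-numbered replicates did not deviate together (correlations -0.117, -0.00342 and -0.0407), so the numbers are not taken as pairs. With the replicate number as a block, 10 listed genes were called lower (BAG3 at adjusted p = 0.0514 was not) and CRYAB higher, 5 genes of the other lists were lower and 1 higher, and of all genes 189 were lower and 387 higher.

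The sign changed without U87MG-LMO2 replicate 3 for HSPA2 (-0.0485), HSPA14 (0.0648), DNAJA3 (0.065), BAG5 (0.1202) and HSF2 (0.0274), after the GC correction for HSPA14 (0.0738), BAG5 (0.0609) and HSF2 (0.1255), and without U87MG-control replicate 1 for DNAJB5 (0.1312) and BAG5 (0.0013). Over the fits that left out a library, the log2 fold change ran from -0.0485 to 0.2571 for HSPA2, -0.1807 to 0.0648 for HSPA14, -0.1739 to 0.065 for DNAJA3, -0.2249 to 0.1312 for DNAJB5, -0.1449 to 0.1202 for BAG5 and -0.1273 to 0.0274 for HSF2. The cause was not tested. The filter of at least 10 counts removed HSPA1A and HSPA6, whose U87MG-LMO2 libraries held 3 to 15.2 counts, which limits their fold changes.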

Other observations

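FKBP5, the glucocorticoid-induced relative of FKBP4, was left out of the tests because its line in the U87MG-LMO2 replicate 3 table was damaged. It had 7.31, 6.55 and 7.17 FPKM in U87MG-control and 5.25 and 5.86 FPKM in U87MG-LMO2 replicates 1 and 2.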
